A study of Mus musculus with 17 samples.

Results

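Mitochondrial ribosomal protein genes are nuclear genes whose products are imported into mitochondria and assembled, with ribosomal RNA made from mitochondrial DNA, into the large and small subunits of the mitochondrial ribosome. This ribosome translates the few mRNAs of the mitochondrial genome, all of which encode subunits of the oxidative phosphorylation complexes. Many of its proteins have a counterpart in bacterial ribosomes, and others are found only in mitochondria. The genes were taken by symbol, as every symbol made of Mrpl (large subunit) or Mrps (small subunit) and a digit, which gave 77 of 23891 gene symbols in the expression tables, 48 Mrpl and 29 Mrps genes. Each gene was represented by 1 RefSeq transcript, the one with the highest mean level over all libraries, and 7 genes had more than 1 such transcript. By current structures 50 proteins belong to the large subunit and 26 to the small subunit, since the products of Mrps18a and Mrps30 sit in the large subunit, and the remaining gene, Mrps36, encodes a component of the alpha-ketoglutarate dehydrogenase complex in spite of its symbol.

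RNA was measured in 17 cultures of mouse cells. Spermatogonial stem and progenitor cells (SSC, n = 4) came from testes of mice over 3 months old and were kept with GDNF, bFGF and EGF on mouse embryonic fibroblast feeders, which were reduced by plating on gelatin before RNA was taken; lines 1 and 2 were Oct4-GFP, line 3 C57Bl/6J and line 4 129mix. Multipotent adult spermatogonial-derived stem cells (MASC, n = 6) were picked as colonies that arose spontaneously in long-term SSC cultures and were then kept with LIF in medium for embryonic stem cells on feeders; lines 1 and 2 were Oct4-GFP, lines 3 and 4 129mix, and lines 5 and 6 Gt(ROSA26)Sor-lacZ. Embryonic stem cells (ESC, n = 2, Oct4-GFP and 129mix) and induced pluripotent stem cells (iPS, n = 2, 129mix) were kept in the same way, the iPS lines having been made with 2 µg/ml doxycycline from E13.5 embryonic fibroblasts that carried tetO-4F2A and H3.3B-HA. The remaining libraries were haematopoietic cells (HSC, n = 2, C57Bl/6J), which were lineage-negative cells expanded on E4ORF1-HUVEC, a human endothelial feeder, and E13.5 embryonic fibroblasts that carried H3.3B-HA (MEF, n = 1, 129mix). Strain and cell type were not crossed in full, and only Oct4-GFP and 129mix had SSC, MASC and ESC lines.

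Values were FPKM, the number of fragments scaled to transcript length and library size, so that they are levels per length. Depth was not given as counts, so the precision was read from the confidence bounds that came with each value, whose half-width was 5.13% of the value at the median of the 77 genes and 11.7% at most. Cell type markers were read in each group. The summed FPKM of 7 pluripotency genes was 12.7 to 154 in SSC against 2711 to 4292 in MASC, that of 9 germ cell genes was 751 to 885 in SSC against 75.3 to 108 in MASC, and that of 8 blood cell genes was 999.9 to 1259 in HSC against 5.78 to 22.4 in SSC, MASC, ESC and iPS. In MEF that sum was 94.6, with Spi1 at 46.1 FPKM, and its part in the MEF values was not tested. Fibroblast genes, which feeder cells also express, differed between libraries of 1 group. The sum of 12 such genes was 41.2 to 1368 in SSC, 166 to 1559 in MASC, 180 to 639 in ESC, 66.2 to 225 in iPS, 214 to 1393 in HSC and 9508 in MEF, and 1 of the 12, Lum, was listed at 0 in HSC line 1. In HSC line 1 the sum was nearly all S100a4, at 211 FPKM, which was also at 759 in HSC line 2. Sparc alone was at 171 FPKM in iPS line 2 and at 134 in MASC line 5, so a sum can rest largely on 1 gene. Endothelial genes summed to 63.2 to 68.7 in HSC and to 1.87 to 22.9 in the other groups. In HSC lines 1 and 2 that sum was mostly Pecam1 (42.3 and 19.2 FPKM) and Vwf (26.0 and 32.6). Esam, Kdr and Cdh5 were at 0.240, 0.064 and 0.024 in HSC line 1 and at 5.27, 3.45 and 1.15 in line 2. In bulk RNA, fewer cells of a type and less RNA per cell cannot be told apart.

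The stretch before the transcription start was searched for letters bound by factors known to act on nuclear genes for mitochondrial proteins. RefSeq start sites on GRCm38.p6 were matched for 68 of the 77 genes, and a window from 250 bases before to 50 bases after the start was read on both strands. The motif of nuclear respiratory factor 1, CGCATGCG, was in 7 of the 68 windows (10.3%), against 1.91% of 27025 promoters and 4.03% of the 9784 promoters of genes with a mean of at least 1 FPKM here. CCGGAAG, the core of ETS family sites such as those of GABP, was in 24 (35.3%), against 9.12% and 18.2%. AAGATGGC, the core of the YY1 site, was in 12 (17.6%), against 2.88% and 4.73%, and the E-box CACGTG, which MYC and other factors bind, was in 5 (7.35%), against 7.24% and 10.5%. In all, 38 of the 68 windows held at least 1 of the 4 motifs. These are matches of letters and were not tested as binding sites. The 7 promoters with the NRF1 motif are shown because 6 of them belong to genes that changed. Each line holds 60 bases around the motif, all within the 250 bases before the start, written 5′ to 3′ in the direction of transcription with matches to any of the 4 motifs in capitals. The last one also holds an ETS core.
Mrpl9 (chr3:94443276-94443335, forward strand): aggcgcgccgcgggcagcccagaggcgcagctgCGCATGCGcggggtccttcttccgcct
Mrpl10 (chr11:97041421-97041480, forward strand): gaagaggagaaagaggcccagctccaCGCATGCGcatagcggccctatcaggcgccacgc
Mrpl17 (chr7:105811088-105811147, reverse strand): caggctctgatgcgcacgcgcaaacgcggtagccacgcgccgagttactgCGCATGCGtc
Mrpl32 (chr13:14613038-14613097, reverse strand): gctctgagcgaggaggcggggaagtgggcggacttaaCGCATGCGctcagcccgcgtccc
Mrpl39 (chr16:84735335-84735394, reverse strand): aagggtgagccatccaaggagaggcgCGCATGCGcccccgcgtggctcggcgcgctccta
Mrps18b (chr17:35916631-35916690, reverse strand): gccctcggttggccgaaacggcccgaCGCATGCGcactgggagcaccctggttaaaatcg
Mrpl22 (chr11:58171604-58171663, forward strand): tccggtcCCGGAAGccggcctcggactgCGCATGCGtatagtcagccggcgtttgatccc

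Of these 7 genes, all but Mrpl22 were among the genes called higher in MASC than in SSC, described next. Among the 27 matched genes called higher, 6 (22.2%) held the NRF1 motif and 13 (48.1%) the ETS core, against 1 (2.70%) and 8 (21.6%) of the 37 matched genes called in neither direction. The YY1 core was in 6 (22.2%) of the matched genes called higher and 6 (16.2%) of those not called. For the E-box it was 3 (11.1%) and 2 (5.41%). Of the 4 matched genes called lower, 3 held the ETS core and none held any of the other motifs. Mrps28 and Mrps34, both called higher, had no matched promoter and are not in these shares. No test was made of these shares. Examples with the ETS core (CTTCCGG where it lies on the other strand) are shown in the same way for genes higher in MASC (Mrpl18, Mrpl27 and Mrps18c, the last beside an E-box) and for genes lower in MASC (Mrps22 and Mrpl52).
Mrpl18 (chr17:12916282-12916341, reverse strand): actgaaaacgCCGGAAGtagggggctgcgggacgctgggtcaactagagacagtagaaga
Mrpl27 (chr11:94653709-94653768, forward strand): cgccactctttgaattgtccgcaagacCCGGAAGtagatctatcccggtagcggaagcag
Mrps18c (chr5:100798576-100798635, forward strand): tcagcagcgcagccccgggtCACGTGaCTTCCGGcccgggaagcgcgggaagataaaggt
Mrps22 (chr9:98601680-98601739, reverse strand): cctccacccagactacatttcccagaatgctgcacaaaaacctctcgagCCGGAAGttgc
Mrpl52 (chr14:54426835-54426894, forward strand): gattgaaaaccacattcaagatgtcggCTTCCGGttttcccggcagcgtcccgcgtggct

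The mitochondrial ribosomal protein genes were expressed in every library. All 77 were at or above 1 FPKM in each of the 17 libraries, and their mean FPKM ran from 7.26 for Mrpl41 to 167 for Mrpl52, a 23.0-fold spread among proteins that take part in 1 particle. FPKM is a level per length, so a ranking of genes depends on the annotated transcript and its length. By the 1 transcript kept per gene, the highest were Mrpl52, Mrpl33 and Mrpl42 (412, 466 and 666 bases). The lowest were Mrpl41, Mrpl1 and Mrpl19 (2423, 1579 and 4996 bases). Mrpl1 has another RefSeq transcript, at a mean of 5.92 FPKM, which its level leaves out. Mrpl41 lies across Dph7 and Mrpl19 across Gcfc2, and no statement on strand was found for the counting, so reads of these overlapping genes may be split between them. The summed FPKM of the 77 genes was 3424 ± 379 in SSC (SD, n = 4), 3992 ± 192 in MASC (n = 6), 3819 and 3872 in the ESC lines, 4031 and 3817 in the iPS lines, 3702 and 2680 in the HSC lines and 2842 in MEF. As a share of total FPKM over transcripts of at least 200 bases the order changed. It was 0.768% ± 0.0499 in SSC, 0.722% ± 0.0550 in MASC and 0.500% to 0.556% in HSC, since total FPKM was lower in SSC (405142 to 487219) than in MASC (523321 to 619668). The SSC and MASC ranges overlapped on both scales.

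By group mean of log2(FPKM + 1), MASC was the highest group for 25 genes, iPS for 21, SSC for 12, HSC for 8, ESC for 7 and MEF for 4. MEF was the lowest group for 39 genes, SSC and HSC for 15 each, ESC for 4, iPS for 3 and MASC for 1. The genes did not move as a block. The heat map orders them by the MASC minus SSC difference.

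**Figure D1:**
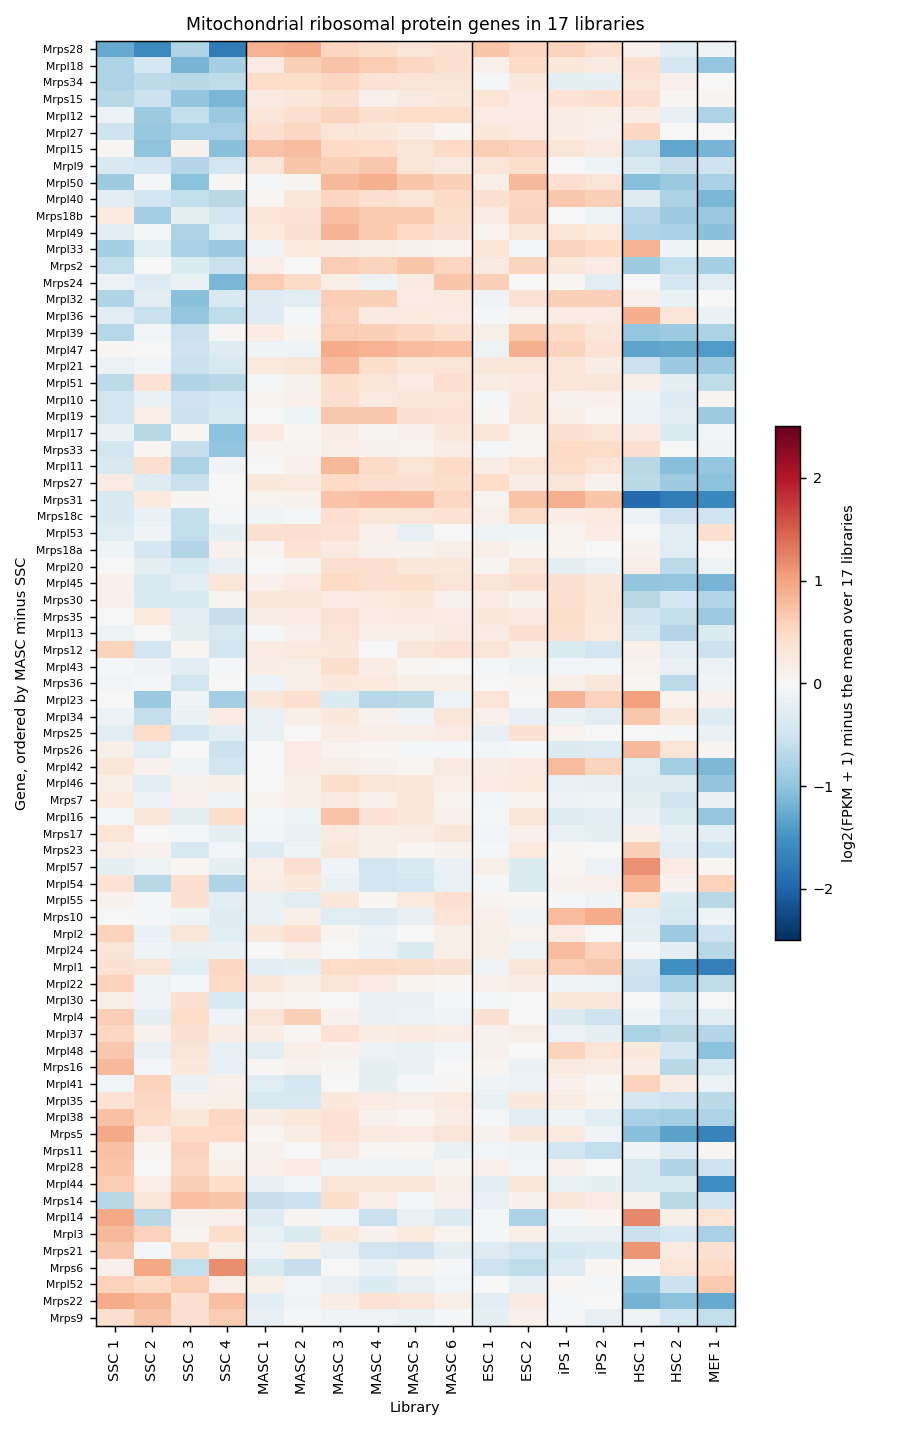
Level of the 77 mitochondrial ribosomal protein genes in each of 17 libraries, as log2(FPKM + 1) minus the gene's mean over the libraries (colour), with genes in rows from the most positive to the most negative MASC minus SSC difference and black lines between cell types. Genes at the top are low in the 4 SSC libraries and high in MASC, ESC and iPS, those at the bottom are high in SSC, and HSC and MEF are low for Mrps31, Mrpl47, Mrps22 and Mrps5.

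MASC were compared with SSC, the cell type from which they arise in culture. Media also differed between these groups, and strains did in part, so cell type and culture cannot be told apart. Of the 77 genes, 32 (41.6%) were called higher in MASC and 5 (6.49%) lower by limma at a Benjamini-Hochberg adjusted p under 0.05 over all 32661 transcripts. With strain as a block 19 were called higher. The background was 11.4% of all transcripts higher and 19.5% lower. Many of those transcripts were not expressed, and among the 18757 with at least 1 FPKM in at least 2 lines it was 19.6% higher and 30.3% lower. The median log2 difference of the 77 genes was 0.27, against -0.13 for expressed transcripts, and it stayed above 0 with quantile normalization (0.22) and with scaling to equal medians (0.39), which moved the median of expressed transcripts to 0.00 and -0.03. A log2 difference of at least 1 was reached by 7 of the 77 genes among those called higher, against 6.04% of all transcripts. Among the 18757 expressed transcripts 2106 were called higher with such a difference, a larger share than among the 77 genes. No gene called lower differed by that much. Every MASC line was above every SSC line for 20 genes (26.0%, against 9.92% of all transcripts) and below for 3 (3.90%, against 15.4%). Nothing in the labels states that lines of a group came from separate animals, so the p-values measure the spread between these lines.

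The genes called higher were spread over both subunits. They were 14 of 30 large subunit genes with a bacterial counterpart and 9 of 20 mitochondria-specific large subunit genes. In the small subunit they were 5 of 16 genes with a bacterial counterpart and 4 of 10 mitochondria-specific genes. Mrps18a and Mrps18b, which descend from bacterial S18 as Mrps18c does, were counted as mitochondria-specific. Mrps18c was counted as having a bacterial counterpart. The genes called lower were 2 mitochondria-specific large subunit genes, Mrpl38 and Mrpl52, and 3 small subunit genes, Mrps9, Mrps21 and Mrps22. The median log2 difference in these 4 classes was 0.40, 0.24, 0.06 and 0.44.

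**Figure D2:**
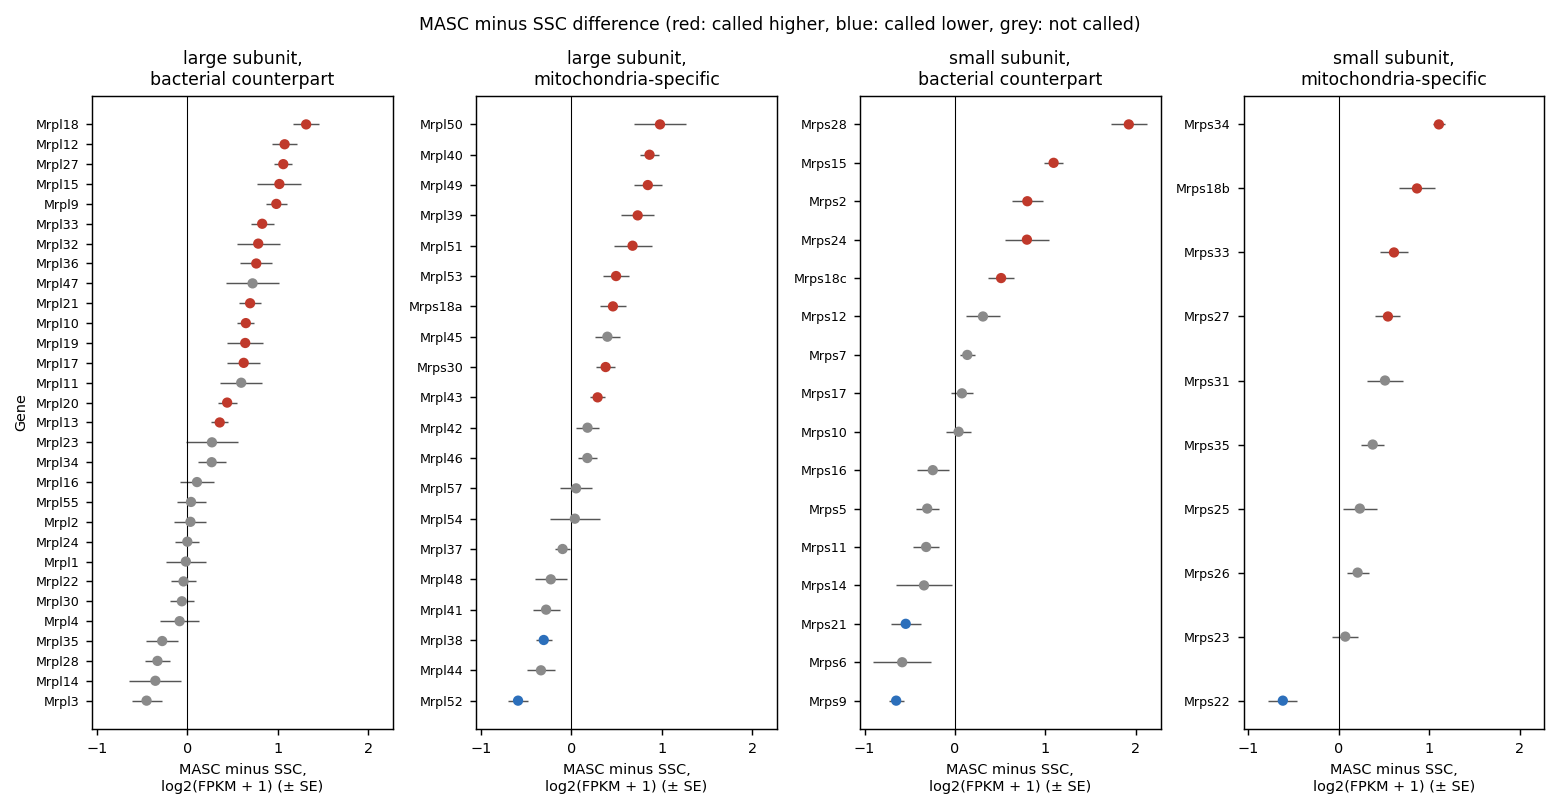
MASC minus SSC difference of log2(FPKM + 1) with its standard error (horizontal axis) for each gene, for 6 MASC and 4 SSC lines. The 4 panels are by subunit and by whether the protein was counted as having a bacterial counterpart. Genes called higher (red) are in every panel, led by Mrps28 at 1.92, and the 5 genes called lower (blue) lie between -0.65 and -0.30.

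Mrps28 (chr3:8802146-8923857, mm9, transcript of 722 bases), a small subunit protein related to bacterial S1, had the largest difference. Its FPKM was 13.4, 10.5, 19.5 and 9.27 in SSC lines 1 to 4, and 42.3 at the lowest, 47.6 at the median and 65.2 at the highest of the MASC lines. The groups were far apart, and the highest SSC line was line 3. The log2 difference was 1.92 ± 0.20 (SE, adjusted p = 7.88e-05), a 3.91-fold ratio of mean FPKM. Its level was 55.0 and 49.1 in ESC, 50.1 and 45.1 in iPS, 36.1 and 27.5 in HSC and 30.7 in MEF, so SSC had the lowest level of the 6 groups. SSC lines 1 and 3, the higher pair, were also those with more fibroblast RNA, with Col1a2 at 102 and 267 FPKM against 1.37 and 18.8 in lines 2 and 4, and the part of feeder RNA in these values was not tested.

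Mrpl18 (chr17:13104221-13108957), a large subunit protein with a bacterial counterpart, was at 42.4, 53.7, 32.1 and 40.7 FPKM in SSC and at 84.8 to 120 in MASC with a median of 108. No SSC line reached the lowest MASC line. The log2 difference was 1.31 ± 0.15 (adjusted p = 0.000119). Mrps34 (chr17:25032065-25033218), a mitochondria-specific protein needed for a stable small subunit, had little spread, with 24.4, 26.2, 25.8 and 26.7 FPKM in SSC and 52.8 to 62.0 in MASC. Its log2 difference of 1.11 ± 0.06 (adjusted p = 2.09e-06) had the smallest adjusted p of the genes named here.

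Mrpl12 (chr11:120345983-120350068), the counterpart of the bacterial stalk protein that draws translation factors to the ribosome, also known to bind the mitochondrial RNA polymerase, was at 95.3, 56.4, 69.5 and 54.6 FPKM in SSC. In MASC it was at 131 to 155 with a median of 143. SSC line 1 was nearest to the MASC lines but did not overlap them, and the log2 difference was 1.07 ± 0.14 (adjusted p = 0.000281). Mrps15, a small subunit protein that binds ribosomal RNA early in assembly in bacteria, was at 28.6, 31.8, 23.1 and 20.7 in SSC and 51.3 to 61.4 in MASC (1.09 ± 0.11, adjusted p = 5.86e-05). Mrpl27, whose bacterial counterpart reaches toward the peptidyl transferase centre, was at 31.6, 23.4, 25.8 and 25.8 in SSC and 47.4 to 65.8 in MASC (1.06 ± 0.10, adjusted p = 4.32e-05). Neither gene overlapped between the groups.

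Mrpl9 and Mrpl15, large subunit proteins with bacterial counterparts, completed the 8 largest rises. Mrpl9 was at 25.2, 23.4, 19.6 and 23.7 FPKM in SSC and 38.5 to 54.1 in MASC (0.98 ± 0.11, adjusted p = 0.000153). Mrpl15 fell into pairs in SSC, 15.4 and 16.5 in lines 1 and 3 against 7.03 and 6.86 in lines 2 and 4, and was at 19.2 to 26.4 in MASC (1.02 ± 0.24, adjusted p = 0.0101). The SSC pairs thus differed by more than the gap between lines 1 and 3 and the lowest MASC line. Another Mrpl15 transcript, at a mean of 13.8 FPKM, did not show these pairs. It was at 9.39, 9.71, 11.1 and 7.69 in SSC lines 1 to 4 and at 13.6 to 21.5 in MASC. Mrpl33, one of the shortest ribosomal proteins and among the most abundant transcripts here, was at 67.5, 97.1, 68.0 and 63.0 in SSC and 111 to 142 in MASC (0.83 ± 0.13, adjusted p = 0.000905). Mrpl19, at 5.67, 9.32, 5.31 and 6.07 in SSC and 7.56 to 13.8 in MASC, was called higher (0.64 ± 0.20, adjusted p = 0.0331) with groups that overlapped, and the call was lost in 7 of the fits that left out 1 line, with adjusted p up to 0.210 over all alternatives.

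The genes called lower in MASC changed less. Mrps9 (chr1:42908078-42962528), a small subunit protein with a bacterial counterpart, was at 44.9, 55.1, 44.7 and 52.3 FPKM in SSC and at 28.7 to 32.8 in MASC with a median of 31.2. The ranges were separate, and the log2 difference was -0.65 ± 0.08 (adjusted p = 0.000285). Mrps22 (chr9:98489150-98502098), a mitochondria-specific small subunit protein in which mutations cause mitochondrial disease in people, was at 48.9, 45.7, 33.6 and 43.1 in SSC and at 20.5 to 32.5 in MASC with a median of 28.5. Its log2 difference was -0.62 ± 0.16 (adjusted p = 0.0151), and its lowest SSC line was only just above the highest MASC line.

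Mrpl52 (chr14:55045746-55048587), a mitochondria-specific large subunit protein and the most abundant transcript of the set, was at 240, 223, 247 and 180 FPKM in SSC and 125 to 178 in MASC (-0.59 ± 0.11, adjusted p = 0.00297). The lowest SSC line was just above the highest MASC line. Mrps21, a small subunit protein with a bacterial counterpart, was at 178, 108, 156 and 124 in SSC and 77.5 to 124 in MASC (-0.54 ± 0.16, adjusted p = 0.0303). Mrpl38, a mitochondria-specific large subunit protein, was at 83.2, 69.8, 60.4 and 71.4 in SSC and 51.9 to 64.2 in MASC (-0.30 ± 0.09, adjusted p = 0.0294). For Mrps21 and Mrpl38 the groups overlapped, and neither call held without SSC line 1, without MASC line 4, 5 or 6, or with median scaling. That of Mrps21 was also lost without SSC line 3 or MASC line 3, and that of Mrpl38 without SSC line 2 or 4. Their adjusted p over the alternatives was up to 0.290 and 0.194.

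Among the genes named for their level or spread, Mrpl42 was at 148, 129, 110 and 85.4 FPKM in SSC and 120 to 141 in MASC, and was not called (0.18 ± 0.13). Mrpl41 was at 6.71, 11.1, 6.22 and 7.87 in SSC and 5.002 to 7.33 in MASC (-0.28 ± 0.15), and Mrpl1 at 9.23, 8.77, 5.35 and 10.1 in SSC and 5.47 to 9.95 in MASC (-0.02 ± 0.22). Mrps31, Mrps5 and Mrpl44 also failed the test, at 0.51 ± 0.20, -0.31 ± 0.13 and -0.33 ± 0.15. Each of these 6 genes overlapped between the groups.

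The mammalian mitochondrial ribosome has paralogs that all descend from bacterial S18, Mrps18a in the large subunit and Mrps18b and Mrps18c in the small subunit. All were called higher in MASC. Mrps18b was at 94.5, 43.3, 68.2 and 57.5 FPKM in SSC and 101 to 135 in MASC (0.86 ± 0.19, adjusted p = 0.00749). Mrps18c was at 52.0, 60.2, 44.7 and 65.1 in SSC and 63.6 to 91.3 in MASC (0.51 ± 0.14, adjusted p = 0.0229), and Mrps18a at 39.9, 32.1, 25.5 and 46.4 in SSC and 45.1 to 56.0 in MASC (0.46 ± 0.14, adjusted p = 0.0347). Mrps18b did not overlap between the groups, whereas SSC line 4 overlapped the MASC lines for the other 2 paralogs. The call of Mrps18a was lost in 7 of the fits that left out 1 line (SSC line 2 or 3, or any MASC line but the first). That of Mrps18c was lost without SSC line 1 or 3. With strain as a block Mrps18a and Mrps18b lost their calls, and with quantile normalization Mrps18a and Mrps18c did. With the replicate number as a block none of these paralogs kept its call. The highest adjusted p over all alternatives was 0.106 for Mrps18b, 0.151 for Mrps18c and 0.235 for Mrps18a. Mrps36, the dehydrogenase component, was at 28.0, 28.5, 21.2 and 29.4 in SSC and 26.5 to 35.5 in MASC, and did not pass the test (0.27 ± 0.10, adjusted p = 0.0731).

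**Figure D3:**
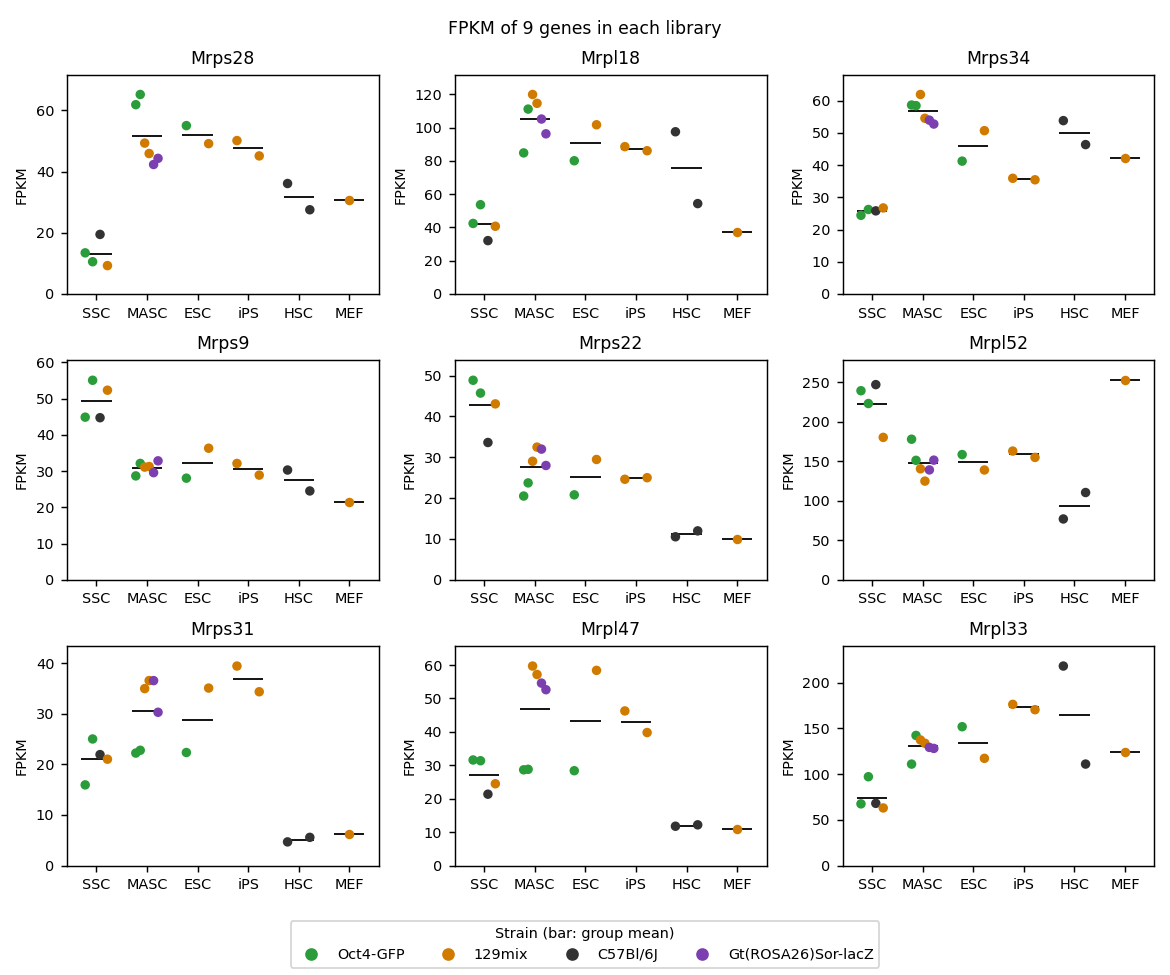
FPKM (vertical axis) of 9 mitochondrial ribosomal protein genes in each library, by cell type (horizontal axis), coloured by strain, with a bar at the group mean. Mrps28, Mrpl18, Mrps34 and Mrpl33 are lowest in SSC or MEF, Mrps9 and Mrps22 are highest in SSC, and the Oct4-GFP MASC and ESC lines of Mrpl47 lie near 28 FPKM, where the other MASC and ESC lines lie between 52.6 and 59.7.

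The embryo-derived and reprogrammed pluripotent lines were set beside MASC against the same 4 SSC lines, so that the comparisons share their controls. In ESC, 14 genes (18.2%) were called higher than in SSC and 5 (6.49%) lower, with 7.67% and 13.8% of all transcripts as background and 13.7% and 23.7% of expressed ones. In iPS, 25 (32.5%) were called higher and 7 (9.09%) lower, with 8.93% and 15.6% of all and 14.3% and 24.4% of expressed transcripts as background. These counts rest on both lines of each group, since 8 or 9 genes were called higher in ESC with 1 of the 2 ESC lines, and 8 without iPS line 1 or 13 without iPS line 2. The genes called higher in MASC, ESC and iPS alike were 12, among them Mrps28, Mrpl18, Mrps34, Mrps15, Mrpl12, Mrpl27, Mrpl9 and Mrpl33, and those called lower in each were Mrpl38, Mrps22 and Mrps9. Of all transcripts 5.38% were called higher and 11% lower in each, and the shared SSC lines tie these comparisons together. Mrpl9 in iPS lost its call without either iPS line or without SSC line 2, 3 or 4 (adjusted p up to 0.242), and Mrps22 in iPS without either iPS line. Mrpl12 and Mrpl18 in iPS lost theirs without iPS line 1. In ESC the call of Mrpl12 was lost without either ESC line, that of Mrpl33 without ESC line 1 and that of Mrpl38 without ESC line 2. Mrps22 in ESC lost its call without ESC line 1 or SSC line 1, 2 or 4, and with median scaling. For Mrps28 the log2 difference was 1.95 ± 0.27 in ESC (adjusted p = 0.000795) and 1.83 ± 0.25 in iPS (adjusted p = 0.000293). For Mrps9 it was -0.60 ± 0.11 in ESC (adjusted p = 0.00401) and -0.67 ± 0.12 in iPS (adjusted p = 0.00139). The median over the 77 genes was 0.23 in ESC and 0.35 in iPS, where expressed transcripts were at -0.16 and -0.19.

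A few genes, chosen after their values were seen, stood higher in iPS than in the other pluripotent lines. By the transcript kept, Mrps10, a small subunit protein with a bacterial counterpart, was at 27.7 and 30.8 FPKM in iPS and 12.3 to 20.3 in MASC. It was at 17.1 and 14.8 in ESC and 12.4 to 15.5 in SSC. Another Mrps10 transcript, at a mean of 15.5 FPKM, was at 23.2 and 19.5 in iPS and 14.4 to 22.5 in MASC. For that transcript iPS and MASC overlapped. Mrpl24, a large subunit protein with a bacterial counterpart, was at 104 and 88.7 in iPS and 46.5 to 66.1 in MASC and ESC. Mrpl24 overlaps the gene Rrnad1. No test between iPS and the other pluripotent lines was made.

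ESC and MASC were compared to ask whether cells of embryo and germ line origin, kept in the same way, differed. No mitochondrial ribosomal protein gene was called in either direction by limma, 3 had an unadjusted p under 0.05, and the background was 0.0276% of all transcripts higher and 0.00306% lower. The differences of the 77 genes ran from -0.40 to 0.37 on the log2 scale, with a median of -0.04. In 6 genes both ESC lines were below every MASC line, against 3.41% of all transcripts, and in none were they above, against 2.2%. These included Mrps34, at 41.3 and 50.7 FPKM in ESC against 52.8 to 62.0 in MASC (-0.30 ± 0.08), and Mrpl38, at 48.8 and 41.5 against 51.9 to 64.2 (-0.34 ± 0.11).

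The HSC lines showed the other pattern, as a part of the set was much lower there. Against SSC, 12 genes (15.6%) were called higher and 21 (27.3%) lower, with 12.7% and 20.7% of all transcripts as background. Among transcripts of at least 1 FPKM in at least 2 samples 13 and 18 of the 77 genes were called, with 18.5% and 31.9% as background, so the lower share was above the background of all transcripts but not above that of expressed ones. The median of the 77 genes was -0.20 against -0.34 for expressed transcripts, and it turned to 0.08 with scaling to equal medians, so the direction of the whole set against SSC depends on the scaling. Against the pluripotent lines (the mean of MASC, ESC and iPS), 4 genes (5.19%) were called higher and 32 (41.6%) lower, with 15.9% and 17.4% as background. Among expressed transcripts the background was 22.4% and 28.4%, and 5 and 31 genes were called. Of the 77 genes 16 were called lower by at least 1 on the log2 scale, against 11.2% of all transcripts. Among the 20119 expressed transcripts 3883 were, a share near that of the 77 genes. The median was -0.36 against -0.24 for expressed transcripts and was below 0 with both other scalings (-0.38 and -0.19). The number called lower dropped to 21 without HSC line 2, which had more fibroblast RNA than line 1 (Col1a2 at 143 FPKM against 0.340), and the number called higher dropped to 0 without line 1. Against SSC, 13 genes were called lower without line 2 and 5 higher without line 1.

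Mrps31 (chr8:23521812-23540137), a mitochondria-specific small subunit protein, had the widest range of the 77 genes. Its FPKM was 4.67 and 5.57 in HSC and 6.16 in MEF, against 22.2 to 36.6 in MASC, 22.4 and 35.1 in ESC, 39.5 and 34.4 in iPS, and 15.9, 25.0, 21.9 and 21.0 in SSC. The HSC lines were far below every pluripotent line, by -2.41 ± 0.23 on the log2 scale (adjusted p = 7.21e-06), and below SSC by -1.83 ± 0.25 (adjusted p = 0.000127). Mrps22 was at 10.5 and 11.97 in HSC and 10.0 in MEF, and was lower in HSC than in pluripotent lines (-1.12 ± 0.18, adjusted p = 0.000453) and than in SSC (-1.83 ± 0.20, adjusted p = 2.04e-05). Its level was highest in SSC, lower in the pluripotent lines and lowest in HSC and MEF, with no overlap between these.

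Mrps5, the counterpart of a bacterial protein that bears on the accuracy of translation, was at 28.9 and 23.2 FPKM in HSC and 18.4 in MEF, against 62.8 to 77.7 in MASC and 69.5 to 118 in SSC (HSC against pluripotent lines -1.36 ± 0.16, adjusted p = 3.79e-05). Mrpl44, a large subunit protein with a ribonuclease III-like fold, was at 21.9 in both HSC lines and 9.12 in MEF, against 32.4 to 45.5 in SSC, and was called lower in HSC than in SSC (-0.85 ± 0.19, adjusted p = 0.00405). Mrpl1, a stalk base protein in bacteria, was at 4.54 and 1.70 in HSC and 1.40 in MEF, and was called lower in HSC than in pluripotent lines (-1.34 ± 0.30, adjusted p = 0.00424). Mrpl15 was at 9.75 and 5.60 in HSC and 6.19 in MEF, again below every pluripotent line (-1.40 ± 0.29, adjusted p = 0.00279). Without HSC line 2 the calls of Mrpl1 and Mrpl15 against pluripotent lines were lost, with adjusted p of up to 0.117 and 0.0668.

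The genes called higher in HSC than in pluripotent lines were Mrps21, Mrps26, Mrpl34 and Mrpl57. Mrps21 was at 239 and 131 FPKM in HSC, against 77.5 to 124 in MASC, 89.3 and 79.7 in ESC and 81.7 and 88.0 in iPS (1.00 ± 0.23, adjusted p = 0.00545). Mrps26 was at 87.0 and 61.3 in HSC and 38.3 to 56.7 in the pluripotent lines. For these genes line 1 was well above line 2, and none of the 4 was called when line 1 was left out. There were 9 genes called higher both in HSC than in SSC and in MASC than in SSC, against 3.28% of all transcripts, among them Mrps28, Mrpl27, Mrpl12, Mrpl18 and Mrpl33. The HSC calls of Mrpl12, Mrpl18 and Mrpl33 were lost without HSC line 1 (adjusted p = 0.201, 0.302 and 0.0563). Those of Mrps28 and Mrpl27 were kept in every alternative, as were those of Mrps15 at 61.9 and 48.5 FPKM in HSC (1.06 ± 0.15, adjusted p = 0.000135) and Mrps34 at 53.8 and 46.4 (0.93 ± 0.09, adjusted p = 5.46e-06). Another 14 genes called higher in MASC than in SSC, among them Mrpl9, Mrpl15 and Mrps18b, against 6.23% of all transcripts, were called lower in HSC than in pluripotent lines.

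Other genes of mitochondrial translation were read for comparison from lists that do not overlap the 77 genes. Of 6 subunits of the mitochondrial ribosome with other symbols, 4 were called higher in MASC than in SSC and none lower, with Chchd1 at 1.26 ± 0.20 (adjusted p = 0.000867), Ict1 at 0.80 ± 0.15, Gadd45gip1 at 0.59 ± 0.14 and Aurkaip1 at 0.41 ± 0.08. Of 19 assembly factors 5 were higher and 4 lower, among them Fastkd2 (1.12 ± 0.25) and Dhx30 (-0.93 ± 0.17), and of 14 translation factors 2 were higher and 2 lower, with the elongation factor Gfm1 at 10.9 FPKM in SSC and 37.3 in MASC (1.70 ± 0.11) and the mRNA-binding Lrpprc at -0.30 ± 0.09. Of 20 mitochondrial aminoacyl-tRNA synthetases 3 were higher and 4 lower, with Aars2 at 1.22 ± 0.20 and Iars2 at -1.12 ± 0.14, and of 12 genes of mitochondrial DNA and transcription 2 were higher and 4 lower, with Top1mt at -1.64 ± 0.13, the DNA polymerase gene Polg at -1.15 ± 0.08 and Tfam at 0.70 ± 0.20. The medians of these lists were 0.52, 0.03, -0.05, -0.15 and -0.24, beside 0.27 for the mitochondrial ribosomal protein genes.

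Of 9 regulators of mitochondrial gene programmes 5 were called higher in MASC and 1 lower. Nrf1, which binds the first motif shown, was at 6.39 FPKM in SSC and 14.3 in MASC (1.14 ± 0.28, adjusted p = 0.0109), and was at 1.86 in HSC. Gabpa, which binds ETS cores, was at 16.3 in SSC and 27.2 in MASC (0.70 ± 0.18), Yy1 was at 32.9 and 50.0 (0.61 ± 0.12), and Myc was at 1.84 and 19.0 (2.81 ± 0.59). Pprc1, a coactivator, was lower, at 78.4 and 49.7 (-0.64 ± 0.12). These are RNA levels set beside the motif counts, and no link between the 2 was tested.

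The products of mitochondrial translation join nuclear-encoded subunits of oxidative phosphorylation, and of 84 such subunits 29 were called higher in MASC than in SSC and 8 lower, with a median of 0.19. Cytosolic ribosomal protein genes moved further, with 45 of 80 higher, none lower and a median of 0.68. In HSC against pluripotent lines the numbers called lower were 22 of 84 and 24 of 80, with medians of -0.21 and -0.49, beside 32 of 77 and -0.36 for the mitochondrial ribosomal protein genes. Both lists were chosen by symbol pattern, and cytosolic ribosomal protein genes have many near-identical processed copies, so their values are less certain.

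**Figure D4:**
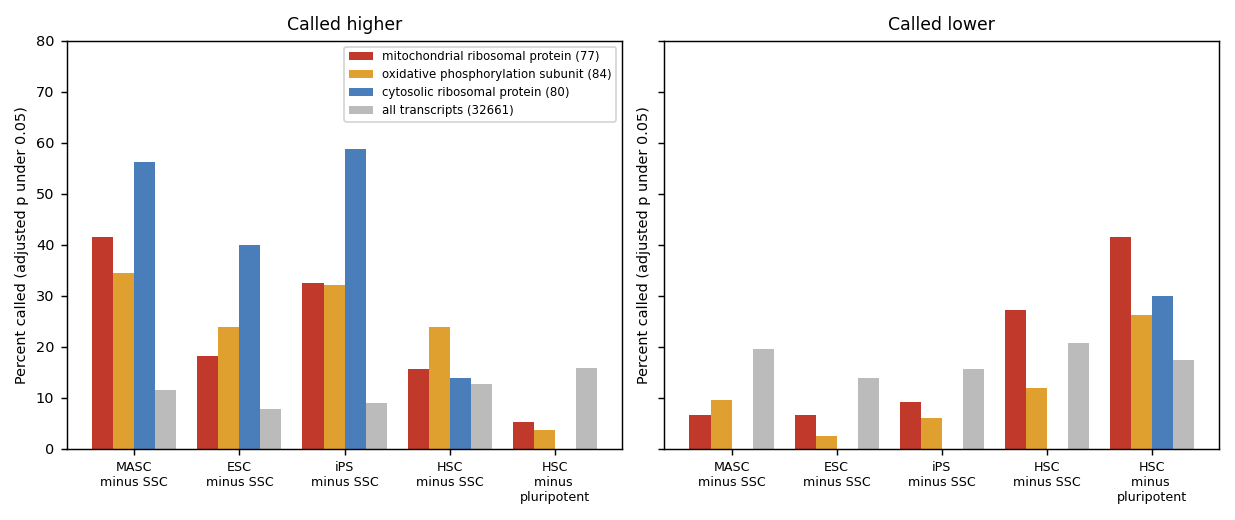
Percent of genes called higher (left) and lower (right) at an adjusted p under 0.05 (vertical axis) in 5 comparisons (horizontal axis), for the mitochondrial ribosomal protein genes, 84 oxidative phosphorylation subunits, 80 cytosolic ribosomal proteins and all 32661 transcripts. In MASC against SSC the mitochondrial ribosomal protein genes reach 41.6% higher and 6.49% lower, and in HSC against pluripotent lines 5.19% higher and 41.6% lower.

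Lines of 1 cell type also differed among themselves. Of the 8 MASC and ESC lines, 3 were Oct4-GFP (MASC lines 1 and 2 and ESC line 1), and for 25 genes (32.5%) all 3 lay below the other 5 lines, against 11.3% of all transcripts, while for 8 (10.4%) all 3 lay above, against 9.54%. The largest gap was in Mrpl47 (chr3:32626419-32635677), a large subunit protein with a bacterial counterpart, chosen here for this gap. It was at 28.6, 28.8 and 28.4 FPKM in the Oct4-GFP lines and at 59.7, 57.2, 54.6, 52.6 and 58.4 in the other lines, 1.98 times as high in the mean, with no line in between. In SSC the Oct4-GFP lines were at 31.6 and 31.4 and the other lines at 21.3 and 24.5, so the order was the opposite one. Mrpl50, Mrpl1, Mrpl32 and Mrps31 followed, with ratios of 1.66, 1.62, 1.59 and 1.55. In a fit of 9 Oct4-GFP and 129mix lines, in which 129mix had 1 SSC line, the MASC minus SSC difference of Mrpl47 was -0.13 in Oct4-GFP and 1.22 in 129mix. The same lines showed the gap for which it was chosen, so these values are a description. Of the 77 genes 1 was called for a difference between the strains, against 0.392% of all transcripts, and 16 had an unadjusted p under 0.05, against 10.8%.

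Strain was not the only property that these lines shared. Over all transcripts, the deviations from the group means of MASC lines 1 and 2 and ESC line 1 correlated with those of SSC lines 1 and 3, of which line 3 was C57Bl/6J, with r of 0.19 to 0.43 across transcripts for the 8 pairs of different cell types within these 5 libraries and -0.43 to -0.09 for the 22 pairs with 1 library in the set. The 14 pairs with neither library in the set had r of 0.076 to 0.41. SSC line 2, which was also Oct4-GFP, was not in the set. Its r was -0.33 and -0.23 with MASC lines 1 and 2 and -0.27 with ESC line 1. With the other MASC and ESC lines it was 0.17 to 0.27. The set was defined from these values, and centring on group means makes some of them negative by construction. Col1a2, a collagen gene of fibroblasts, was at 102 and 267 FPKM in SSC lines 1 and 3, 327 and 53.2 in MASC lines 1 and 2 and 137 in ESC line 1, and at 1.37 to 18.8 in the other SSC, MASC and ESC lines. SSC lines 1 and 3 were both above lines 2 and 4 for 24 of the 77 genes (31.2%, against 22.2% of all transcripts) and below for 15 (19.5%, against 20.9%). Of the 8 genes above in the Oct4-GFP lines, 7 were among these 24 (46.5% over all transcripts), such as Mrpl54 at 74.2 and 76.2 FPKM in SSC lines 1 and 3 against 35.2 and 33.8 in lines 2 and 4. Of the 25 below in the Oct4-GFP lines, 9 were among the 15, Mrpl32 and Mrpl50 included (50.9% over all transcripts), and 3 were among the 24. Strain, culture and library preparation cannot be told apart for these lines.

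The MASC minus SSC result was therefore read within each set. The sign was the same among the 4 SSC and MASC libraries of that set and among the remaining 6 for 61 of the 77 genes, 45 of them positive and 16 negative. Every MASC line was above every SSC line within both sets for 29 genes, against 13.3% of all transcripts, and below within both for 7, against 19.9%. These counts include the 32 genes called higher and the 5 called lower. Those were chosen over these same libraries, which favours their agreement. Among the 40 genes not called, the sign was the same for 24, 13 positive and 11 negative. Of these 40, 2 were above and 2 below within both sets. With the 5 libraries left out, 29 genes were called higher and 5 lower, and with the 3 SSC and MASC libraries richest in fibroblast RNA left out (SSC lines 1 and 3 and MASC line 1) 23 and 4.

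**Figure D5:**
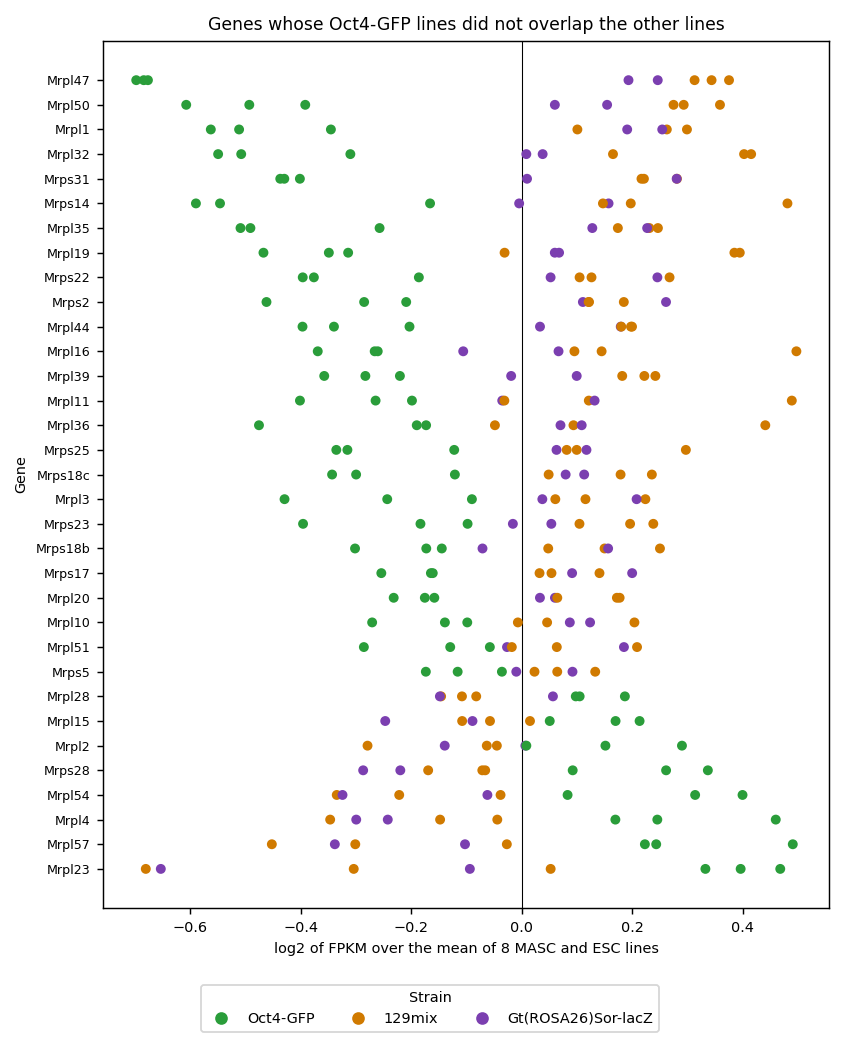
The 33 genes for which the 3 Oct4-GFP lines did not overlap the other 5 MASC and ESC lines, with each line's FPKM as log2 of its ratio to the mean of the 8 lines (horizontal axis), coloured by strain. For 25 genes, led by Mrpl47, the Oct4-GFP lines are lowest, and for 8, at the bottom, they are highest.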

How the data were processed

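RNA from 17 cultures was sequenced by the authors with TruSeq libraries. Per the labels and the study's methods, reads were aligned to mm9 with TopHat2 (2.0.11), duplicates and reads with several positions were left out, and the authors deposited Cufflinks FPKM with upper-quartile and GC correction, together with coverage values (a signal per base) that were used only as a guide to depth. The Cufflinks version is not given in the sources used here. Counts were not used, so depth is known only through the confidence bounds. Each table held 33262 entries, of which 601 further loci of a transcript were left out and 32661 tested.

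Values were tested as log2(FPKM + 1) with limma 3.58.1 (R 4.3.3, lmFit and eBayes), Benjamini-Hochberg adjusted over all transcripts, and a fold change on this scale understates that of low genes. MASC, ESC and SSC were fitted over 12 lines, and comparisons with iPS or HSC over all 17 samples. Differences are log2 with their SE. The test of the strain difference used 9 lines. On data simulated for MASC against SSC with 200 changed transcripts of 32661, 1.5% of changes of 0.5, 40% of changes of 1 and 89.5% of changes of 2 on the log2 scale were recovered. In the data far more transcripts were called (3739 higher and 6360 lower), which makes the adjusted p less strict. The simulated shares therefore do not give the power of the real comparison. Tables were handled with Python 3.11.15, pandas 2.3.3 and numpy 2.4.6, and drawn with matplotlib 3.10.9.

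Genes were named by rule: the 8 most higher and 8 most lower of those called between MASC and SSC (5 were called lower), the 3 highest and 3 lowest in mean FPKM, the 5 with the widest range between groups, and 5 of known role (Mrps18a, Mrps18b, Mrps18c, Mrpl12, Mrps36). Others are said to be chosen after their values were seen. The members and lists were chosen with earlier results of these data known. Alternatives were a pseudocount of 0.1, a filter (1 FPKM in at least 2 samples), quantile normalization, median scaling, sums per symbol, trended and robust estimation, all 17 samples, blocks, a log2 limit of 1 and leaving out each line. Leaving out SSC lines 1 and 3 and MASC line 1, the SSC and MASC libraries richest in fibroblast RNA, or the 5 that deviated together, was added after seeing the data. Coordinates of genes are mm9 as in the files, and promoters are RefSeq on GRCm38.p6, first start per symbol.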

Additional observations from a re-analysis of the deposited data

Results flagged for a closer look

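Within groups of 4 to 10 lines, Mrpl33 was at 97.1 FPKM in SSC line 2, far from the other SSC lines at 63.0 to 68.0. Mrps36 was at 21.2 FPKM in SSC line 3, against 28.0 to 29.4 in the others, and at 26.5 in MASC line 1, against 32.5 to 35.5. Over all 77 genes 4 such values were found in SSC and 3 in MASC, and chance gives about 1 in 20 groups.

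The MASC minus SSC difference of Mrpl47 differed between Oct4-GFP and 129mix lines by -1.35 on the log2 scale (limma adjusted p = 0.00920 for the interaction). The 129mix arm held 1 SSC line, and the gap between Oct4-GFP and other lines had been seen in the same libraries, so this is not an independent test.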

How the results depend on the processing

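The median differences of the 77 genes are relative to a shift of expressed transcripts given in the report. Higher and lower calls, in that order, were 32 and 5 for MASC against SSC, 14 and 5 for ESC, 25 and 7 for iPS and 12 and 21 for HSC against SSC, and 4 and 32 for HSC against pluripotent lines. Quantile normalization moved the lower calls to 9 in MASC and 11 in iPS, and the higher calls of HSC against pluripotent lines to 2. Median scaling gave 3 lower in MASC, 22 higher and 2 lower in ESC, 13 lower in HSC against SSC and 8 higher in HSC against pluripotent lines. A log2 limit of 1 left 7 and 0 in MASC, 5 and 0 in ESC, 7 and 0 in iPS, 5 and 8 in HSC against SSC, and 1 and 16 in HSC against pluripotent lines. A strain block left 19 higher in MASC. Without SSC lines 1 and 3 and MASC line 1, which leaves the fibroblast-rich HSC line 2 in, 2 were higher in HSC against pluripotent lines. Only the bases before the start held the YY1 motif in 4 promoters in place of 12. The causes were not tested.

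Replicate numbers did not pair the samples, as lines with the same number correlated in their deviations with r of -0.37 to 0.43. With a replicate block the calls were 12 and 2 in MASC, 5 and 2 in ESC, 11 and 4 in iPS, and 7 and 13 in HSC against SSC. Leaving out 1 line gave 23 to 35 higher and 3 to 7 lower in MASC (3 lower without SSC line 1 or MASC line 4, 5 or 6), 8 to 16 and 2 to 5 in ESC, 8 to 25 and 3 to 9 in iPS, 5 to 13 and 13 to 22 in HSC against SSC, and 0 to 5 and 21 to 34 in HSC against pluripotent lines. No member was called between ESC and MASC under any of these.

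Among the named genes, Mrpl42 turned to -0.17 between MASC and SSC with quantile normalization. Mrpl1, at -0.02, turned to 0.23 with quantile normalization, 0.091 with median scaling, 0.0055 when summed per symbol, 0.029 without the 5 libraries, and 0.035, 0.014 and 0.075 without SSC line 1, 2 or 4, and 0.080 and 0.071 without MASC line 1 or 2. Over the fits without 1 line it ran from -0.19 to 0.080.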
